A study of Rattus norvegicus with 3 samples.

Results

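Broad Dor regions are stretches of the rat genome where CUT&Tag peaks of all 3 libraries of the series joined into an interval of 1500 bases or more. They were chosen by pooling the deposited peaks of chromosomes 1 to 20, joining peaks that overlapped by at least 1 base, and keeping the regions that held a peak of each library and reached that span. The peak positions themselves therefore chose the members, and the span, the widths and the presence in 3 libraries are given below as description. The rule found 571 regions among the 4384 that held a peak of each library, which is 13.0% (exact 95% interval 12.0 to 14.1%, counting error only), out of 254448 regions joined from all peaks. The other 3813 regions held in 3 libraries spanned fewer than 1500 bases and are called compact below.

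The study profiled Dor in cultured rat cells at 3 stages, with 1 library of each: oligodendrocyte precursor cells (OPC), oligodendrocytes labelled immature (iOL, D1 in the series' design text) and oligodendrocytes labelled mature (mOL, D3). Precursors were shaken off mixed glial cultures and grown in Sato medium with 10 ng/ml PDGF-AA and 20 ng/ml bFGF. The differentiation medium held 15 nM of the thyroid hormone T3 and 10 ng/ml of CNTF, and the iOL and mOL samples are labelled as treated with T3. All 3 libraries used the same rabbit antibody to Dor and no transgene or deletion is named. The peak names hold the word pool, and the sources used here do not say what was pooled. Peak lists hold no expression, so the labelled cell types could not be checked against marker genes. A single library per stage leaves no replicate spread to test against, and every difference below is one between libraries.

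Dor, encoded by Tp53inp2, is a nuclear protein known as a coactivator of nuclear receptors, the thyroid hormone receptor among them, and it also moves to the cytoplasm, where it takes part in autophagy through proteins of the LC3 and GABARAP families. In CUT&Tag an antibody brings a transposase to chromatin, and fragments cut around the bound protein pile up into a peak whose highest point is the summit. Precursor cells divide in response to PDGF, and thyroid hormone drives their exit from the cell cycle and their maturation into cells that wrap axons in myelin. A wide peak can hold 1 extended stretch of signal or several close sites, which a peak list does not separate. No gene, promoter or sequence was assigned to a region, because the positions are on the build rn5 and the RefSeq tables used here describe a later rat assembly.

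The libraries differed in depth. There were 64732 OPC, 59681 iOL and 166805 mOL peaks, and the genome-wide background recovered from them was 1.47, 0.540 and 1.83 fragments per base. Pileup means the number of fragments over a summit, and strength means that pileup as a multiple of the library's genome background. The lowest pileup called was 9 for OPC, 6 for iOL and 10 for mOL, so that the iOL library called nothing under a strength of 11.1, against 6.11 in OPC and 5.47 in mOL. Mitochondrial fragments made up an estimated 26.7% of the OPC background, 34.5% of the iOL background and 16.1% of the mOL background. A strength is therefore also given, where it matters, with that part left out.

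The joined regions were broad, but the iOL peaks inside them mostly were not. The median span was 1689 bases (quartiles 1580.5 and 1852, largest 3559), against 1011 in the compact regions. The mOL peaks covered a median of 1452 bases per region (quartiles 1211 and 1643), the OPC peaks 1096 (814 and 1375) and the iOL peaks 610 (416.5 and 829.5). As a share of the span these medians were 84.3% in mOL, 62.7% in OPC and 34.4% in iOL. In the compact regions they were 83.8, 70.9 and 50.9%. The quartile ranges of mOL and iOL did not overlap, while those of OPC overlapped both.

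**Figure D1:**
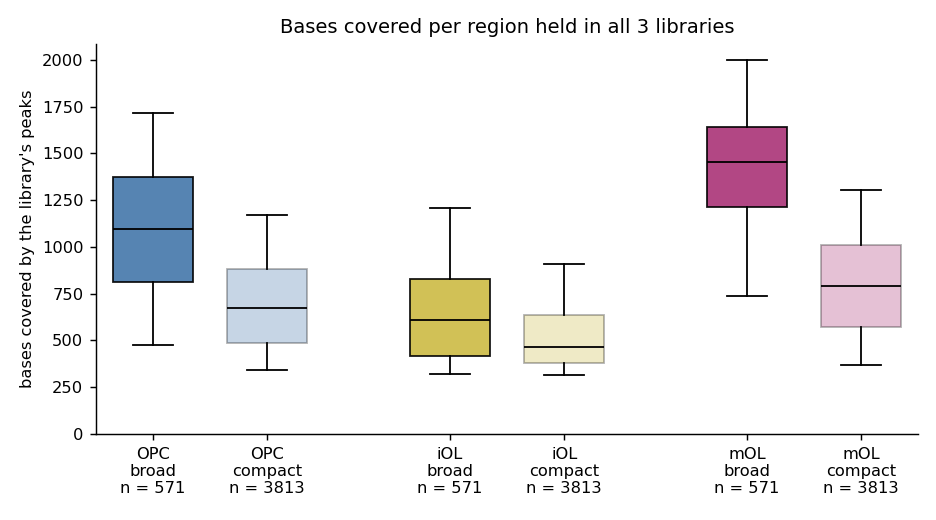
Bases of each region covered by the peaks of a library (vertical axis, bases), for the broad (dark) and compact (pale) regions held in all 3 libraries; boxes give the quartiles with the median as a line, and whiskers reach from the 5th to the 95th percentile. In the broad regions the medians lay at 1096 bases for OPC, 610 for iOL and 1452 for mOL, and in the compact regions at 673, 466 and 791.

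Most broad regions were built from few peaks. In 441 of 571 (77.2%) each library gave exactly 1 peak, against 98.0% of the compact regions, and 14 regions held more than 4 peaks. More than 1 peak of a library was found in 54 regions for OPC, 51 for mOL and 38 for iOL. A single peak that alone reached 1500 bases lay in 306 regions (53.6%, 49.4 to 57.7%), and it was an mOL peak in 245, an OPC peak in 82 and an iOL peak in 9, with some regions holding more than 1 such peak. The remaining 265 regions reached the span only because shorter peaks of different positions were joined. At a width of 1000 bases, 471 regions (82.5%) held such an mOL peak, 299 (52.4%) such an OPC peak and 58 (10.2%) such an iOL peak. Only 28 regions (4.90%) had a peak of that width in each library, so the label of a region broad at all stages held for the joined span and not for the peaks of every stage.

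The mOL library covered the most bases in 406 of the broad regions (71.1%, 67.2 to 74.8%), the OPC library in 142 (24.9%) and the iOL library in 23 (4.03%). In the compact regions the shares were 56.9, 31.7 and 11.1%. The full order of mOL, then OPC, then iOL held in 330 broad regions (57.8%) and in 40.7% of the compact ones. A deeper library can call wider peaks, so widths were also compared at the same multiple of the lowest pileup that each library called. At 4 to 6 times that pileup, the widest peak of a library in a region had a median width of 1376 bases in mOL (n = 107 regions), 981 in OPC (n = 157) and 651.5 in iOL (n = 132). The compact regions gave 748, 719 and 527 bases there. At 6 to 9 times the medians in the broad regions were 1447, 1158 and 715.5 bases (n = 175, 141 and 36), in the same order. In the compact regions they were 846, 771 and 588 bases, with mOL and OPC closer together. Peak widths entered the span rule, so the order of widths within the broad regions is a description. These multiples matched the pileup over the calling limit and not the total number of fragments, and the part of depth that remains was not tested.

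How the outer ends lay to each other differed by pair. The outermost mOL ends lay beyond the OPC ends on both sides in 194 regions (34.0%), the OPC ends beyond the mOL ends in 55 (9.63%), and the pair was staggered, each reaching further on 1 side, in 316 (55.3%). The median number of bases by which mOL reached past OPC was 481, and OPC past mOL 93. Against iOL, the OPC ends lay outside on both sides in 234 regions (41.0%) and the mOL ends in 309 (54.1%), while the iOL ends lay outside those of OPC in 22 and outside those of mOL in 16. The iOL and OPC peaks were staggered in 309 regions (54.1%) and the mOL and iOL peaks in 233 (40.8%), so staggering was the most frequent form in the pairs with OPC and nesting the most frequent between mOL and iOL. Both outer ends of the joined region came from mOL in 139 regions, from OPC in 37 and from iOL in 7. In the compact regions the staggered share was 54.0% for mOL and OPC, close to that in the broad ones.

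The stretch shared by all 3 libraries was short. A median of 381 bases (quartiles 235 and 582, largest 1435) was covered in OPC, iOL and mOL alike, which is 22.6% of the span, against 340 bases or 35.7% in the compact regions. In 76 broad regions (13.3%, 10.6 to 16.4%) no base was covered by all 3, the peaks being linked in a chain. Such chains made up 52 of the 265 regions without a single peak of 1500 bases (19.6%) and 24 of the 306 with one (7.84%). The bases shared by the libraries thus differed little between broad and compact regions, at medians of 381 and 340, while the spans differed by the rule. Between libraries, the bases covered in a region were almost unrelated over the 571 regions, with Spearman coefficients of −0.07 for OPC and mOL, 0.03 for OPC and iOL and −0.05 for iOL and mOL. The span rule constrains these sums, and in the compact regions the coefficient for OPC and mOL was 0.34; both are descriptions across regions of the same libraries.

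The 5 widest regions show these forms. The widest lay on chromosome 1 at 192599651 to 192603209 and spanned 3559 bases. Its 2 OPC peaks covered 2045 bases, its 2 iOL peaks 1776 and its single mOL peak 2169, and 629 bases were common to all 3. The summit of its strongest peak had 65 fragments for OPC, 26 for iOL and 81 for mOL, which are strengths of 44.1, 48.1 and 44.3. These 3 strengths lay close together, and the outermost summits were 1512 bases apart, with the iOL summit toward the left end and the OPC and mOL summits close together to its right. The mOL peak covered the strongest iOL peak.

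The region on chromosome 2 at 79159905 to 79163232 spanned 3328 bases, and 1 mOL peak covered all of it. The OPC peak inside it covered 1685 bases and the iOL peak 622. Pileups were 51 for OPC, 16 for iOL and 93 for mOL, or strengths of 34.6, 29.6 and 50.8. Among the 5 widest regions it was the only one in which a single peak enclosed those of both other libraries. On the same chromosome at 145348823 to 145351662 the 2840 bases were a chain instead: 751 bases were covered for OPC, 648 for iOL and 2000 for mOL, with 0 bases common to all 3. The OPC and iOL peaks lay on the left and the mOL peak on the right, and the outermost summits were 1522 bases apart.

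The region on chromosome 2 at 168024513 to 168027205 was the only one with 2 peaks from each library, and with 6 peaks it also held the most. It spanned 2693 bases, with 2210 covered for OPC, 1011 for iOL and 2304 for mOL. Its strongest summits lay 1877 bases apart, the strongest peak being the left one in OPC and the right one in iOL and mOL. On chromosome 6 at 144248980 to 144251646 the 2667 bases held 2 mOL peaks around 1 OPC and 1 iOL peak. Strength there was 42.1 for OPC, 74.0 for iOL and 61.8 for mOL, so the iOL value was the highest of the 3. On chromosome 5 at 131251759 to 131254249 there were 3 OPC peaks with 1 iOL and 1 mOL peak, and the summits were 2010 bases apart, the largest distance among the broad regions.

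**Figure D2:**
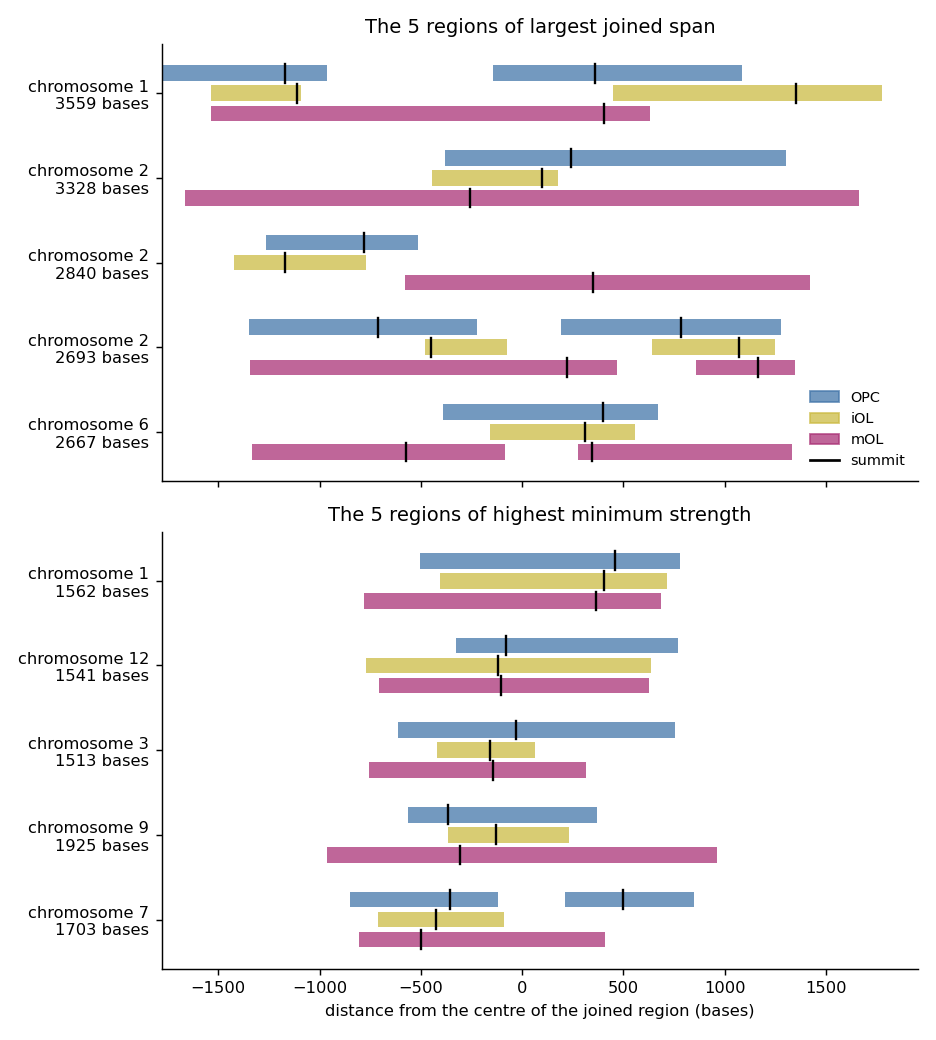
Peaks of the OPC (blue), iOL (yellow) and mOL (red) libraries in the 5 widest regions (top) and in the 5 with the highest minimum strength (bottom); the horizontal axis is the distance in bases from the centre of the joined region, bars are peaks and black marks are summits. The outermost summits of the strongest peaks lay 498 to 1877 bases apart in the widest regions and 37 to 235 bases apart in the strongest ones.

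Summit positions were not used by the rule. The outermost of the 3 summits, each from a library's strongest peak, were a median of 503 bases apart in the broad regions (quartiles 235 and 868) and 268 in the compact ones, where the span itself caps the distance. They lay within 200 bases in 118 broad regions (20.7%, 17.4 to 24.2%) and in 36.2% of the compact ones. They lay more than 1000 bases apart in 96 broad regions (16.8%). By pairs, the median distance was 225 bases between mOL and OPC, 271 between iOL and OPC and 274 between mOL and iOL. The OPC summit lay inside the strongest mOL peak in 474 regions (83.0%) and the iOL summit did so in 477 (83.5%). In the narrower iOL peaks, the OPC summit was found in 310 regions (54.3%) and the mOL summit in 314 (55.0%).

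Summits lay closer together in the stronger regions. Where the lowest strength of the 3 libraries was under 20, the summits were within 200 bases in 7 of 156 regions (4.49%), at a median distance of 749 bases. Between 20 and 50 this was 86 of 369 (23.3%) and 438 bases, and at 50 or more it was 25 of 46 (54.3%, 39.0 to 69.1%) and 167 bases. The compact regions ran in the same direction, with 27.3, 40.4 and 73.8%. Over the 571 broad regions, the Spearman coefficient between summit distance and lowest strength was −0.35, and between summit distance and span 0.21. A summit with few fragments is placed less precisely, and how much of the distance this accounts for was not tested.

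**Figure D3:**
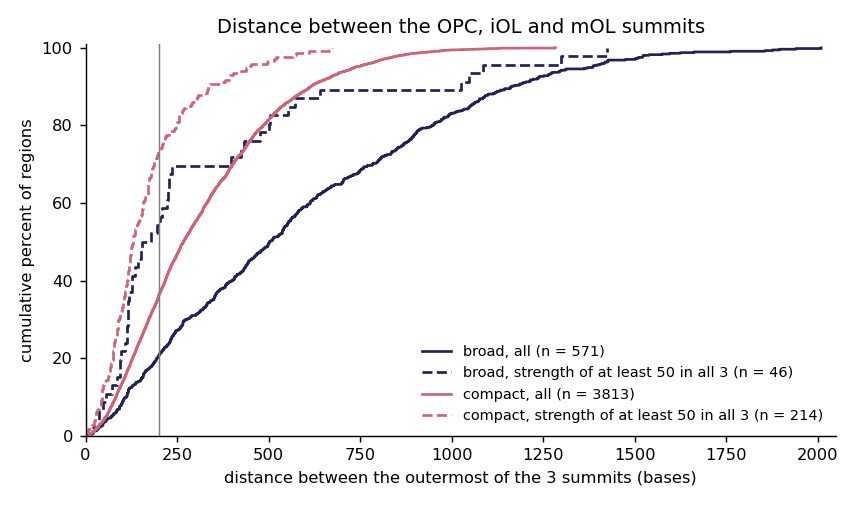
Cumulative percent of regions (vertical axis) against the distance in bases between the outermost of the OPC, iOL and mOL summits, for broad (dark blue) and compact (red) regions; dashed lines are regions with a strength of at least 50 in all 3 libraries, and the grey line marks 200 bases. At 200 bases the curves stand at 20.7% for all broad regions, 54.3% for the strong broad ones, 36.2% for all compact regions and 73.8% for the strong compact ones.

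Strength was not used by the rule directly, except that each peak had to be called. Covered bases rose with strength, so the span rule was not independent of it. The Spearman coefficients in the compact regions were 0.43 for OPC, 0.30 for iOL and 0.42 for mOL. In the broad regions they were 0.34, 0.31 and 0.23. How much of a difference in strength from the compact regions follows from the rule was not tested. Summit pileups in the broad regions ran from 9 to 508 in OPC (median 49), from 6 to 115 in iOL (median 18) and from 10 to 667 in mOL (median 79). As strengths these medians were 33.2 for OPC (quartiles 22.4 and 48.2), 33.3 for iOL (24.1 and 48.1) and 43.2 for mOL (30.3 and 61.8), and these ranges overlapped. In the compact regions they were 25.8, 29.6 and 35.0. A strength of at least 20 in all 3 libraries was found in 415 broad regions (72.7%) and in 53.7% of the compact ones, and of at least 50 in 46 (8.06%) and 5.61%.

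The authors' deposited fold over the local background did not share this order. That fold adds 1 to pileup and to local background, which lowers it most where the background is small. The genome background was smallest in iOL, at 0.540 against 1.47 in OPC and 1.83 in mOL. How far differences in fold between libraries follow from this was not tested. The median fold was 8.12 for OPC, 7.90 for iOL and 8.21 for mOL in the broad regions, against 8.75, 8.08 and 9.03 in the compact ones. The local background used for that fold stood at a median of 3.33 (OPC), 2.61 (iOL) and 4.90 (mOL) times the genome background. In the compact regions these multiples were 2.32, 2.00 and 3.43. At the median, broad regions thus stood higher than compact ones over the genome background and slightly lower over the local one, in each of the 3 libraries. Whether a control entered the local background is not stated, so it may not be independent of the signal in the region. Among the broad regions, strength was almost unrelated to span, with Spearman coefficients of 0.05 for OPC, 0.05 for iOL and 0.03 for mOL.

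The strongest broad region lay on chromosome 1 at 151578328 to 151579889. Its summit had 508 fragments for OPC, 115 for iOL and 667 for mOL, which are strengths of 345, 213 and 365, the highest in the broad regions in each library. The iOL strength was 0.618 times that of OPC (95% counting interval 0.50 to 0.758), and mOL and OPC differed by less than counting error, at 1.06 (0.941 to 1.19). The 3 summits lay within 94 bases, and 1092 of its 1562 bases were covered in all libraries. The authors' folds there, 10.5, 13.8 and 10.1, were not the highest. Its local background stood at 32.2 (OPC), 13.8 (iOL) and 35.7 (mOL) times the genome background, the most among the broad regions.

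The next by minimum strength lay on chromosome 12 at 53686097 to 53687637, with pileups of 168 for OPC, 54 for iOL and 269 for mOL and strengths of 114, 99.96 and 147. Its summits were 37 bases apart, and it is one of the few regions where the iOL peaks covered the most bases, 1406 against 1097 for OPC and 1336 for mOL. On chromosome 3 at 156694544 to 156696056 the strengths were 87.5 for OPC, 94.4 for iOL and 115 for mOL. On chromosome 9 at 13473359 to 13475283 they were 82.8, 96.3 and 136, and the mOL peak covered all 1925 bases. On chromosome 7 at 124003134 to 124004836 they were 77.3, 102 and 75.4, so iOL stood highest and mOL lowest there. This order lay within counting error, as the interval of each pair held 1 (iOL to OPC 0.936 to 1.83, mOL to iOL 0.538 to 1.03, mOL to OPC 0.756 to 1.26). In these 5 regions no library was lowest throughout.

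Compared with OPC, mOL strength was higher by at least 1.5-fold in 194 broad regions (34.0%), where 39.5% of all regions held in 3 libraries passed, and lower by that fold in 40 (7.01%), where 8.49% of all passed. By a counting interval that leaves out 1, mOL was above OPC in 227 regions (39.8%, background 39.3%) and below it in 49 (8.58%, background 7.71%). These shares were near the background. Without mitochondrial fragments the 1.5-fold counts were 142 above (background 28.7%) and 73 below (13.9%), and by the authors' folds 65 above (14.2%) and 50 below (10.8%). The median mOL to OPC ratio was 1.31 in the broad and 1.34 in the compact regions. It was 1.14 in the broad regions with mitochondrial fragments left out of the background, and 1.01 when the authors' folds were divided instead. Over all regions held in 3 libraries the median was 1.33, which the fold scale moved by −0.38 and the mitochondrial correction by −0.19 on the log2 scale. The broad median thus lay above 1 by strength and without mitochondrial fragments, by an amount that depended on the scale. On the fold scale the 95% interval of the broad median, 0.969 to 1.04, held 1. That interval reflects the spread over regions and not between libraries. Relative to the median strength ratio of all regions held in 3 libraries, the broad ones stood at 0.982.

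**Figure D4:**
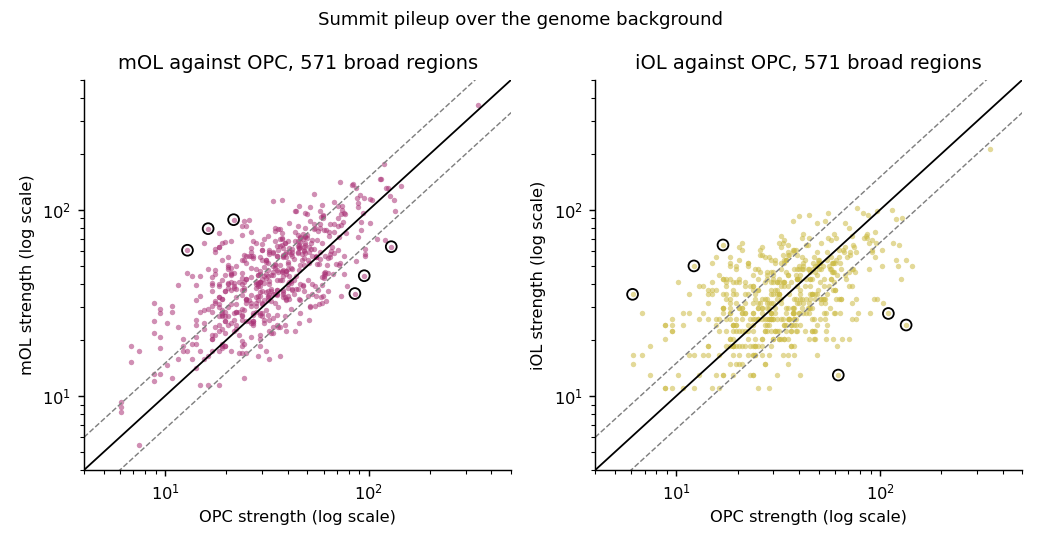
Strength (summit pileup over the genome background, log scales) in mOL against OPC (left) and in iOL against OPC (right), 1 point per broad region (n = 571); the solid line marks equal strength, dashed lines mark 1.5-fold, and circles mark the 3 regions of highest and of lowest ratio by their counting limits. In 194 regions mOL lay at or above the upper dashed line and in 40 at or below the lower one; for iOL these were 134 and 116.

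By the counting limit nearest to 1, the region with the highest mOL to OPC ratio lay on chromosome 1 at 242134119 to 242135685, where summit pileups were 24 for OPC, 9 for iOL and 145 for mOL. The strengths were 16.3, 16.7 and 79.3, so mOL stood apart, at 4.87 times OPC (3.15 to 7.84). The iOL to OPC ratio of 1.02 had a wide interval (0.419 to 2.28). The OPC and iOL summits lay 479 bases apart, so these 2 strengths were not measured at 1 site. The next was on chromosome 6 at 86206697 to 86208468, with pileups of 19, 14 and 111 and strengths of 12.9 for OPC, 25.9 for iOL and 60.7 for mOL, a ratio of 4.71 (2.88 to 8.11). The outermost summits there were 892 bases apart, so these strengths were not measured at 1 site. On chromosome 4 at 205168977 to 205170799 the pileups were 32, 22 and 162 and the mOL peak covered all 1823 bases, with a ratio of 4.08 (2.78 to 6.16). By the authors' folds the 3 ratios were smaller, at 1.92, 3.16 and 1.69. All intervals in this comparison cover counting error only and are not corrected for the choice of extremes.

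At the other end stood regions in which OPC was strongest although mOL was often widest. On chromosome 12 at 48658471 to 48660771 the pileups were 126 for OPC, 39 for iOL and 65 for mOL, with strengths of 85.5, 72.2 and 35.5 and an mOL to OPC ratio of 0.416 (0.303 to 0.565). The OPC peak covered all 2301 bases there, and the outermost summits were 955 bases apart, so the summits compared were at different sites. On chromosome 2 at 184961422 to 184963778 the pileups were 140, 41 and 81 and the strengths 94.98, 75.9 and 44.3, a ratio of 0.466 (0.350 to 0.617). The 3 summits of that region lay within 4 bases of each other, yet the mOL peak covered 2357 bases, the OPC peak 635 and the iOL peak 396. On chromosome 3 at 181709322 to 181710892 the pileups were 190, 49 and 116 and the ratio was 0.492 (0.387 to 0.623), and mOL again covered more bases, 1475 against 721 in OPC.

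Across the members, mOL peaks mostly covered more bases whichever library was stronger. Of the 40 broad regions in which mOL was weaker than OPC by at least 1.5-fold, mOL peaks still covered more bases than OPC peaks in 29 (72.5%, 56.1 to 85.4%). The share was 71.2% of the 337 regions within 1.5-fold and 79.4% of the 194 in which mOL was stronger. In the compact regions the corresponding shares were 44.0, 61.5 and 68.2%. Against iOL, mOL covered more bases in 94.0% of the 218 broad regions in which it was stronger by that fold, in 91.9% of the 297 within it and in 48 of the 56 in which it was weaker (85.7%). The iOL peaks covered more bases than the OPC peaks in 23.9% of the 134 regions in which iOL was stronger, 16.2% of the 321 within the fold and 12.9% of the 116 in which it was weaker. The share thus stood higher with higher strength in the pairs with iOL. For mOL and OPC it was highest where mOL was stronger and alike in the other groups. In the broad regions the library that covered more in most regions was the same at each strength. In the compact ones this did not hold for mOL and OPC. The span rule favours regions with a wide peak in some library, and the bases covered are part of that rule, so these shares are a description.

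Between iOL and OPC the numbers above and below were closer by strength, though not on each scale. The iOL strength was higher by at least 1.5-fold in 134 regions (23.5%, background 29.8%) and lower in 116 (20.3%, background 17.2%). By the counting interval the numbers were 83 above (14.5%, background 16.9%) and 68 below (11.9%, background 9.85%). Without mitochondrial fragments the 1.5-fold counts were 157 above (background 36.5%) and 77 below (12.4%). By the authors' folds they were 63 above (background 10.8%) and 93 below (19.3%), with more regions below than above. The 1 added in that fold lowers it more in a library of small background, such as iOL. How much of the difference on the fold scale follows from this was not tested. The median ratio was 0.981 in the broad regions and 1.12 in the compact ones. The 95% interval of the broad median, 0.932 to 1.05, held 1. That interval reflects the spread over regions of a single pair of libraries and does not measure a difference between stages. Leaving out mitochondrial fragments raised the broad median to 1.10, and a −log10 q of at least 5 raised it to 1.02. The side of 1 on which it falls thus depended on the scaling and on the filter. Relative to the median of all regions held in 3 libraries, 1.10, the broad ones stood at 0.888. A rescaling of a whole library leaves that value as it is, but by the authors' folds it was 1.02, on the other side of 1.

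By the same ranking, the highest iOL to OPC ratio was on chromosome 16 at 80059198 to 80061093, from pileups of 9 for OPC, 19 for iOL and 16 for mOL and strengths of 6.11, 35.2 and 8.75. The ratio of 5.76 had a wide interval (2.48 to 14.5), as the OPC peak stood at the lowest pileup that library called. On chromosome 9 at 95558691 to 95560475 the pileups were 25, 35 and 32 and the strengths 17.0, 64.8 and 17.5, a ratio of 3.82 (2.22 to 6.66). Both were chains with 0 bases common to the 3 libraries, with outermost summits 994 and 770 bases apart, so the summits compared were not at 1 site. On chromosome 5 at 82070216 to 82071889 the pileups were 18, 27 and 37, the ratio was 4.09 (2.17 to 7.89) and 496 bases were common. In all 3 regions iOL was the highest in strength, and mOL was closer to OPC than to iOL. By the authors' folds the ratios were 3.15, 1.99 and 1.81.

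The lowest iOL to OPC ratios by that ranking came from regions strong in OPC, and mOL was strong there as well. Ranking by the counting limit favours regions with many OPC fragments, so their strength in OPC follows in part from the ranking. On chromosome 7 at 11432671 to 11434690 the pileups were 198 for OPC, 13 for iOL and 181 for mOL, with strengths of 134, 24.1 and 98.9 and a ratio of 0.179 (0.0937 to 0.313). Its strongest summits lay within 21 bases, and 589 bases were common. On chromosome 17 at 77924383 to 77925915 the pileups were 162, 15 and 127 and the ratio 0.253 (0.138 to 0.429), with summits within 83 bases. On chromosome 6 at 36376924 to 36378521 the pileups were 92, 7 and 93 and the ratio 0.208 (0.0812 to 0.445), with summits 503 bases apart. By strength, OPC and mOL stood well above iOL in each of the 3. By the authors' folds the iOL to OPC ratios were nearer to 1, at 0.604, 0.6005 and 0.444. The mOL folds were 7.52, 10.6 and 8.88, beside 6.41, 9.47 and 5.19 in iOL. The iOL pileups of 7 to 15 lay near the lowest that library called.

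Between mOL and iOL, mOL was higher by at least 1.5-fold in 218 broad regions (38.2%, background 34.1%) and lower in 56 (9.81%, background 15.5%). By the counting interval it was above in 171 (29.9%, background 24.8%) and below in 39 (6.83%, background 8.87%). The 1.5-fold counts were 129 above (background 18.8%) and 121 below (27.7%) without mitochondrial fragments, and 91 above (20.7%) and 55 below (10.0%) by the authors' folds. The median ratio was 1.27 in the broad and 1.18 in the compact regions. With mitochondrial fragments left out of the background the broad median was 0.993, so this direction also depends on the scaling. The mOL library gave the highest of the 3 strengths in 318 broad regions (55.7%), iOL in 139 and OPC in 114. The lowest came from iOL in 247, from OPC in 246 and from mOL in 78. These ranks depended on the scale as well: without mitochondrial fragments the highest came from iOL in 226 regions, from mOL in 217 and from OPC in 128, and the lowest from OPC in 244, from iOL in 186 and from mOL in 141. By the authors' folds the highest came from mOL in 201, from OPC in 193 and from iOL in 177.

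Across regions the strengths of the libraries were related, with Spearman coefficients over the 571 regions of 0.63 for OPC and mOL, 0.46 for OPC and iOL and 0.41 for iOL and mOL. The compact regions gave 0.65, 0.49 and 0.50. Regions are not replicates, and the points share the 3 libraries and the rule that each had to call a peak.

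On both sides of the threshold of 1500 bases the nearest regions held 1 peak of each library. Just inside it, the region on chromosome 1 at 83808241 to 83809740 spanned 1500 bases with pileups of 80 for OPC, 15 for iOL and 146 for mOL, and that on chromosome 10 at 39647077 to 39648577 spanned 1501 with 47, 19 and 67. Just outside it, the region on chromosome 10 at 94723999 to 94725496 spanned 1498 bases with pileups of 53, 9 and 55, and that on chromosome 1 at 58741524 to 58743020 spanned 1497 with 25, 11 and 79.

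Broad regions were found on each of the 20 chromosomes. The most lay on chromosome 1 (84 regions, 14.7%), followed by chromosome 2 (42), chromosome 5 (40) and chromosome 10 (39, 6.83%). With chromosome lengths taken from the last peak end, the density over all 20 was 2.08 regions per 10 Mb. It was highest on chromosome 10, at 3.52 per 10 Mb or 1.69 times the mean, and lowest on chromosome 15, at 1.05 or 0.504 times from 12 regions. The compact regions stood at 1.98 and 0.735 times their mean there, and all joined regions at 1.35 times on chromosome 10. Chromosome 20, at 1.498 times the mean, chromosome 12, at 1.41 times, and chromosome 1, at 1.39 times, were also above it.

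The broad share of the regions held in 3 libraries varied less than the density. It ran from 9.30% on chromosome 15 (4.90 to 15.7%) to 16.4% on chromosome 16 (10.6 to 23.8%), around the 13.0% of the whole, and these intervals overlapped. Chromosome 10 thus held many broad regions along with many compact ones.

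**Figure D5:**
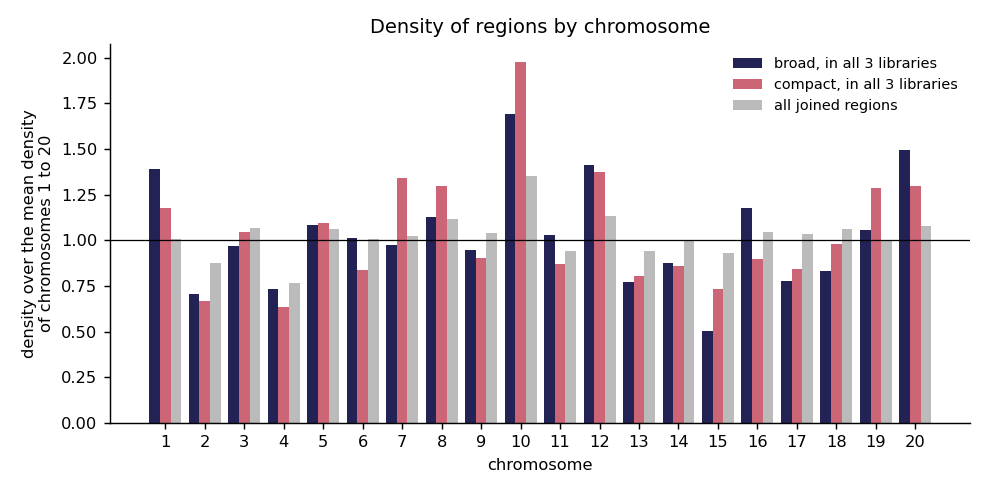
Density of broad (dark blue), compact (red) and all joined regions (grey) on chromosomes 1 to 20, each divided by its mean density over these chromosomes (vertical axis, horizontal line at 1). Chromosome 10 stood highest, at 1.69 times the mean for broad and 1.98 times for compact regions, and chromosome 15 was lowest for broad regions, at 0.504 times.

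Most broad regions had no other region held in 3 libraries within 10000 bases. The nearest other region held in 3 libraries was a median of 93335 bases away, against 92518 for compact regions, and lay within 10000 bases in 36 broad regions (6.30%) and 7.11% of the compact ones. Another mOL peak lay within 10000 bases of 75.5% of the broad regions, another OPC peak of 46.2% and another iOL peak of 43.3%, and the compact regions gave 80.4, 48.0 and 42.8%. Broad and compact regions thus differed little in these shares, with the broad ones lower for OPC and mOL and slightly higher for iOL. Within 50000 bases, another region held in 3 libraries was found for 200 broad regions (35.0%) and for 33.5% of the compact ones. With only broad regions linked, in steps of at most 50000 bases, 38 formed 19 pairs and 533 had no broad neighbour.

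The closest pair lay on chromosome 14 between 36033821 and 36043906, with 6898 bases between its regions. Strengths in the left region were 25.1 for OPC, 48.1 for iOL and 33.3 for mOL, and in the right one 14.2, 37.0 and 25.7, with the libraries in the same order in both. The counting intervals of iOL to OPC left out 1, at 1.11 to 3.25 on the left and 1.34 to 5.04 on the right. Those of mOL to iOL held 1, at 0.431 to 1.14 and 0.403 to 1.24. The mOL to OPC interval held 1 on the left (0.869 to 2.06) and not on the right (1.06 to 3.18). Outermost summits in the right region lay 1162 bases apart, so its strengths were not measured at 1 site. The next pair lay on chromosome 3 between 149403062 and 149415570, 8966 bases apart. Its left region had strengths of 19.0 for OPC, 24.1 for iOL and 27.3 for mOL, and its right region 27.1, 14.8 and 27.9. The iOL to OPC ratio was 1.27 (0.602 to 2.53) in the left region and 0.546 (0.221 to 1.18) in the right, from iOL pileups of 13 and 8, and both intervals held 1. The third pair lay on chromosome 4 between 66086901 and 66102793, 12014 bases apart, with strengths of 26.5, 25.9 and 31.7 in the left region and 45.5, 29.6 and 24.6 in the right one. The mOL strength was the highest in its left region and the lowest in its right one, with mOL to OPC ratios of 1.20 (0.785 to 1.85) and 0.541 (0.362 to 0.801). The first of these intervals held 1. The outermost summits were 1145 bases apart in the left region and 1161 in the right, so the strengths were not measured at 1 site. By the authors' folds iOL stood highest in the left region, at 6.73 against 6.43 in mOL and 5.92 in OPC.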

How the data were processed

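Peak lists of 3 CUT&Tag libraries (OPC, iOL and mOL, 1 each) were used as deposited. MACS2 2.2.7.1, Bowtie2 2.4.4, deepTools 3.5.1 and the build rn5 are listed in the submitters' processing notes, with no roles. Controls, duplicate handling and the meaning of pool in the peak names are not stated in the sources used here. In the narrowPeak layout, the deposited score ranks peaks for display and was not used as a measurement. The authors' fold is a linear ratio of pileup to local background, each plus 1. The authors' p and q values are deposited as −log10. These are the authors' values for single peaks, used to describe and filter within a list and to recover counts.

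From fold and p, which MACS2 takes from a Poisson distribution, the whole-number summit pileup and the local background were solved. The solution reproduced 100% of peaks within a relative tolerance of 1e-05. The lowest background of a library is its genome background. Where a library had several peaks in a region, the one of highest pileup gave its strength and summit. Ratios carry exact conditional binomial intervals and shares exact Clopper-Pearson intervals, at 95%, covering counting error only, since fragments may not be independent molecules. Medians of ratios carry order-statistic 95% intervals over regions, which hold no spread between libraries. The mitochondrial part of the background was estimated from the mean local background at mitochondrial peaks, spread over the genome length. Tested on simulated data, 100% of 2000 pileups per library and of 119 planted broad regions were recovered, 0 of 181 other regions were called broad, and 95.4% of 500 intervals for mOL against OPC held the true ratio.

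Members and lists were chosen with earlier results of these data known. Regions were named by position by this rule: the 5 widest, the 5 of highest minimum strength, the 3 highest and 3 lowest mOL to OPC and iOL to OPC ratios by the counting limit nearest to 1, the 3 with most peaks, the 3 closest groups, and the 2 on each side of the span threshold. Regions named both as widest and for most peaks were described once. Gene lists, nearest genes and cell type markers were planned only for an rn5 annotation and were not run. Alternatives covered q, fold, list length, overlap, span, sequences, scale and summit distance. Matched multiples of the lowest pileup, the interval rule for calls, and calls and ranks on the other scales were added after seeing the data. Python 3.11.15, numpy 2.4.6, pandas 2.3.3, scipy 1.17.1 and matplotlib 3.10.9 were used.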

Additional observations from a re-analysis of the deposited data

Results flagged for a closer look

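Chromosome X lay outside the rule and entered no comparison above. By the same criteria it held 7 broad regions among 73 regions with a peak of each library, and the unplaced sequences held 0 among 2. The widest of the 7 lay at 114716329 to 114718447, with pileups of 78 for OPC, 40 for iOL and 172 for mOL and strengths of 52.9, 74.0 and 94.0. At 5731013 to 5732633 the strengths were 52.2, 62.9 and 61.8. The region at 76840138 to 76841747 had the lowest OPC strength of the 7, 8.82, beside 31.5 in iOL and 20.2 in mOL. No library without the antibody to Dor was analysed here, so a background level for these regions was not measured.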

How the results depend on the processing

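The number of regions depended on the joining rule and the span. Asking for 50% of both peaks to overlap left 125 regions, a span of at least 1000 bases gave 2553 and one of at least 2500 bases 8, by construction. A −log10 q of at least 5 left 518 regions, a fold of at least 5 left 467, and lists of equal length 553, each within 1.5 times the 571. With the 50% overlap the median iOL to OPC ratio was 0.910, mOL covered most bases in 64% and the summits lay within 200 bases in 32%. At 1000 bases of span these were 1.06, 64.0% and 27.3%. At 2500 bases of span mOL covered most bases in 100% and summits lay within 200 bases in 0 of 8 regions, the mOL to OPC median was 1.36, and chromosome 10 held 0 of them. The mOL to OPC median was 1.01 on the fold scale and 1.14 without mitochondrial fragments, and the iOL to OPC median 1.10 without them. The latter was also above 1, at 1.02, with the q filter. Summits lay within 100 bases in 8.58% and within 500 bases in 49.6%. By counting interval, iOL was above OPC in 83 regions and below in 68, against 134 and 116 by fold. Without mitochondrial fragments, counts past 1.5-fold were 73 for mOL below OPC, 77 for iOL below OPC, 129 for mOL above iOL and 121 below. By the authors' folds they were 65 for mOL above OPC, 63 for iOL above OPC and 91 for mOL above iOL. The other alternatives listed for these results moved no median ratio or share past its interval and no count by over 1.5 times. The depth of the iOL library limits what it can show, since its weakest callable summit stood at 11.1 times its background. No paired analysis was possible because there was a single library for every stage.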
